A study of Rattus norvegicus with 24 samples.

Results

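The comparison described here sets 6 OVX/ADX arrays, from rats that had lost both their ovaries and their adrenal glands, against 6 arrays from gland-intact, proestrous rats. These are 12 of the 24 arrays of the series. The intact arrays are the proestrous arrays with plain numbers as titles (2543, 2526, 2538, 2536, 2531 and 2539), and the OVX/ADX arrays are all those whose treatment label is OVX ADX (4123 to 4126, 2541 and 2530). In each gland state, 3 arrays were labelled paced and 3 chamber-exposed. All came from adult Long-Evans females, 50 to 60 days old, and the labelled tissue was midbrain. Intact rats were in proestrus, when circulating estradiol is high and progestogens are rising. OVX/ADX rats were tested 10 days after surgery, drank 0.9% saline beside water, and received 10 ug of estradiol benzoate 44 h before the test, so they lacked ovarian and adrenal progestogens and corticosterone but not estrogen. The study's methods give 6 rats for adrenalectomy and state that 1 OVX/ADX rat died before its surgery was complete, while the labels list 6 OVX/ADX arrays. Whether these 6 arrays came from 6 rats is not given in the sources used here. Nothing in the labels says that arrays of a group came from separate rats, and the p-values below therefore speak only to how these arrays vary, which may be technical.

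Ovaries secrete estradiol and progesterone, and adrenal glands secrete corticosterone, aldosterone and some progesterone. In brain, corticosterone binds the mineralocorticoid receptor at low levels and the glucocorticoid receptor at high levels. It induces genes such as Fkbp5, Per1 and Tsc22d3, and it restrains corticotropin-releasing hormone. Estradiol induces the progesterone receptor in many brain regions, and progesterone metabolites made in the midbrain ventral tegmental area act on GABA-A receptors there and facilitate lordosis.

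Gland state coincided with a difference in the arrays themselves. Poly-A spikes are bacterial transcripts added to the RNA before labelling, so they carry no information from the rat. All 24 poly-A spike probe sets were lower on every OVX/ADX array than on any intact array, by a median of 1.41 on the log2 scale (differences from −4.88 to −0.45). The dap 3' spike read 8.31 to 8.69 on intact arrays and 3.82 to 3.90 on OVX/ADX arrays, with 2541 and 2530 inside the OVX/ADX range. Of the 18 hybridization spike probe sets, which are added after labelling, 6 were higher and 4 lower without overlap, and the differences ran from −0.47 to 1.14. The 9 probe sets for rat actin, Gapdh and hexokinase controls differed by −0.20 to 0.15. The lowest deposited signal was 3.58 to 3.65 on intact and 3.38 to 3.43 on OVX/ADX arrays. No label names a normalization run, and the runs spoken of here are inferred from such lowest signals. Gland state, inferred normalization run and spiked preparation follow the same split of these 12 arrays. Their parts in any result below cannot be told apart.

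**Figure D1:**
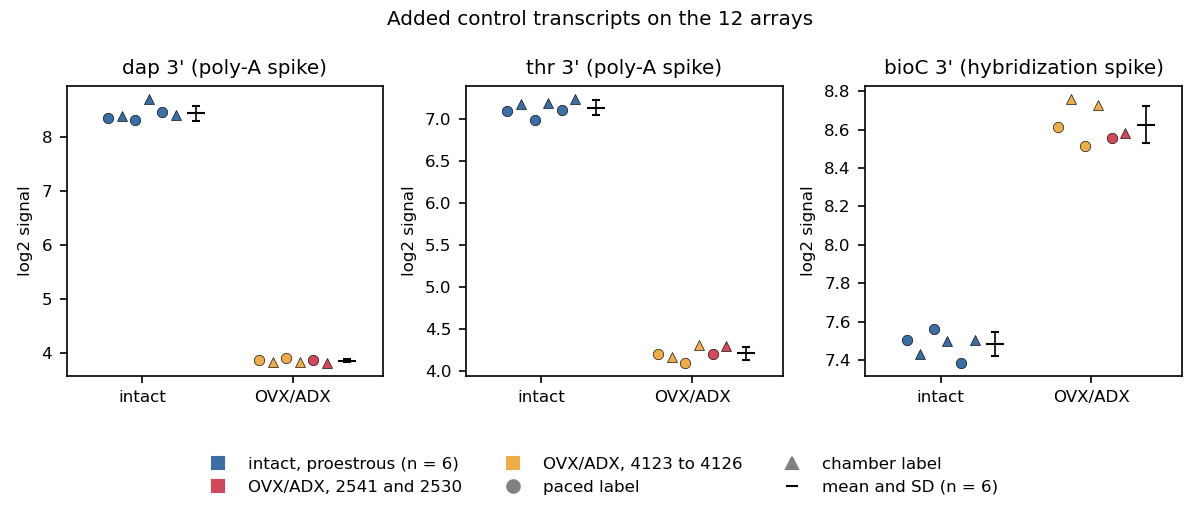
Signal (log2) of 3 added control transcripts on each array, by gland state. Blue points are intact arrays, yellow points OVX/ADX arrays 4123 to 4126, red points OVX/ADX arrays 2541 and 2530; circles are paced and triangles chamber labels, and the bar is the mean and SD of 6 arrays. Both poly-A spikes were lower on all OVX/ADX arrays and bioC was higher, with 2541 and 2530 among the other OVX/ADX arrays.

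After quantile normalization of the 12 arrays together, 17238 of 26015 probe sets kept by the filter on low signals passed an adjusted p of 0.05 (66.3%). Of these, 8865 were higher and 8373 lower in OVX/ADX. In the same gland comparison on the deposited signals without that normalization, 22036 passed and 2276 of them were higher, around a median difference of −0.40. Differences were mostly small, with a median size of 0.24 on the log2 scale, and 961 probe sets passed and differed by over 2-fold (3.69%). Arrays of the same group correlated at 0.992 to 0.998 and arrays of different groups at 0.968 to 0.979, over all probe sets. Arrays 2541 and 2530, whose titles belong to the number series of the intact arrays, correlated at 0.992 to 0.997 with 4123 to 4126 and at 0.969 to 0.979 with the intact arrays. Taking 1 probe set for each of 12808 genes, 31.3% of genes were called higher, 31% were called lower, and the 2 groups did not overlap in 40.9%. These shares are the background for every count below.

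Both title series of OVX/ADX arrays were also set against the same 6 intact arrays. Against these, 52.5% of probe sets passed for 2541 and 2530, and 62.3% for 4123 to 4126. Between the 2 title series within OVX/ADX, 0 of 26015 probe sets passed in limma (0%), 964 had an unadjusted p under 0.05, and a plain linear model called 0. The smallest adjusted p was 0.125. The genes with the smallest p there were Bmp4, Gadd45g, Rab11fip1, Rrad and Tbccd1, with differences of −0.53, −0.40, 0.39, −0.60 and 1.08 (2541 and 2530 minus the others).

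Different probe sets of one gene often went opposite ways. Of 3944 genes with at least 2 probe sets kept, the 2 brightest both passed in 1668, and had the same direction in 1023 of these (61.3%). Among genes whose probe sets had a mean signal of 9 or more, it was 194 of 277 (70.0%). In OVX arrays against Intact-named arrays, a comparison within 1 inferred normalization run that uses none of these 12 arrays, it was 53 of 56 (94.6%). Far fewer probe sets passed there (7.41% against 66.3%), so those 56 genes are a stricter selection. Over all genes with 2 probe sets, called or not, the 2 differences correlated at 0.19 for OVX/ADX and 0.39 for OVX. In OVX/ADX against intact, some probe sets were called higher and others lower in 912 genes. All were called higher in 404 genes and all lower in 426. The share called also fell with signal, from 78.4% to 57.1% between the dimmest and the brightest of 4 equal parts of the probe sets. Values of genes below are those of the brightest probe set, and another probe set is named where it was called the other way.

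**Figure D2:**
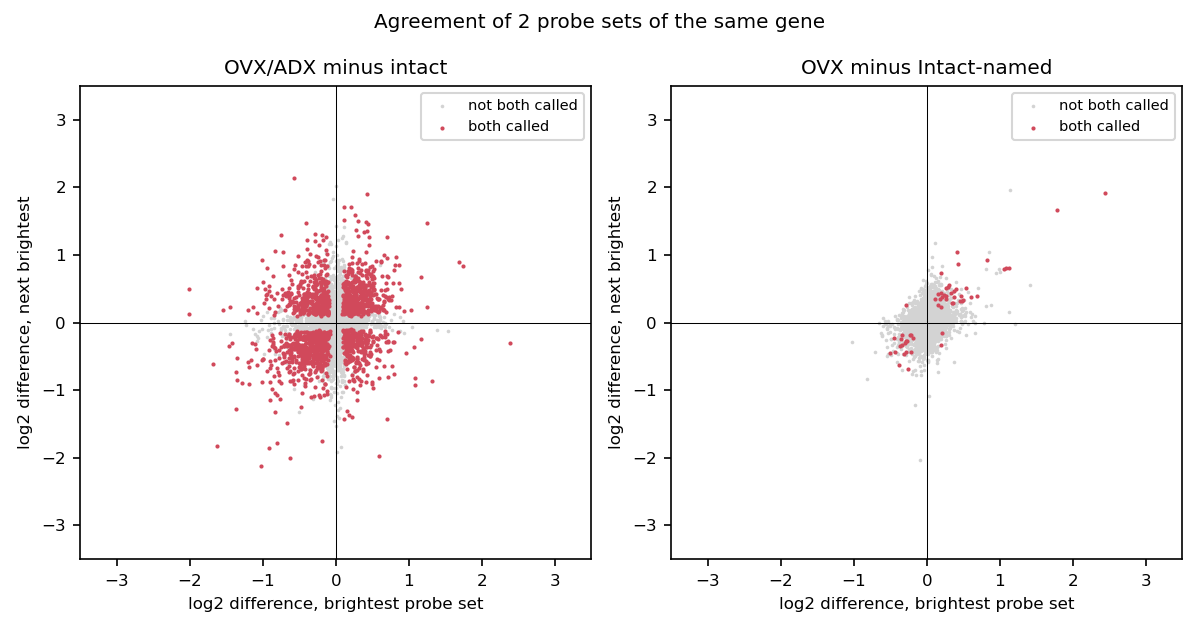
Log2 difference of the brightest probe set of each gene (horizontal axis) against the next brightest (vertical axis), for OVX/ADX minus intact (left, 3944 genes) and OVX minus Intact-named (right, 4069 genes). Red points have both probe sets called; on the left 1023 of 1668 lie in the quadrants of equal sign, on the right 53 of 56.

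Of 16 steroid receptors measured, 4 were called higher (25%) and 6 lower (37.5%), beside 31.3% and 31% of all genes. Their median difference was −0.12, against 0.01 over all probe sets. Nr3c2, the mineralocorticoid receptor, read 8.16, 8.26 and 8.71 (lowest, median and highest of 6) on intact arrays and 7.72, 7.84 and 7.93 on OVX/ADX arrays. It was lower on every OVX/ADX array, by 0.49 ± 0.08 (SE, adjusted p = 0.000209). Nr3c1, the glucocorticoid receptor, read 9.50 to 9.64 on intact arrays and 9.50 to 9.60 on OVX/ADX arrays (difference −0.01 ± 0.04, adjusted p = 0.889), and its dimmer probe set was called lower by 0.44.

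Pgr, the progesterone receptor, read 7.26, 7.47 and 7.82 on intact and 6.51, 6.77 and 6.90 on OVX/ADX arrays. The groups did not overlap, and the difference was −0.77 ± 0.10 (adjusted p = 1.68e-05), or 1.70-fold lower. It was −0.78 for 2541 and 2530 alone and −0.76 for 4123 to 4126. The membrane-associated progesterone receptor component Pgrmc2 was lower by all 3 of its probe sets (−0.31 ± 0.03 for the brightest). Nr1i2, the pregnane xenobiotic receptor, was higher at 5.62 to 5.72 against 5.04 to 5.21 (0.53 ± 0.04), and Rxra, the retinoid receptor it pairs with, was higher by 0.36 ± 0.04. Both Nr1i2 values lay low on the array, near the 18.7th percentile in intact and the 27.5th in OVX/ADX. The intact value lay below the percentile set by the filter on low signals. The Nr1i2 probe set was thus kept mainly through the OVX/ADX arrays, where it was high. Among such probe sets the filter itself favours separated groups, so this separation adds no independent support.

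Genes that respond to glucocorticoids were called in both directions. Of 32 measured, 10 were called higher (31.25%, beside 31.3% of all genes), 3 lower (9.375%, beside 31%) and 19 did not pass. The share called higher was thus that of genes in general. The median difference was 0.09, with −0.01 for 2541 and 2530 and 0.17 for 4123 to 4126. Its sign turned with the mating label, at 0.31 within paced and −0.07 within chamber arrays. Fkbp5, the receptor co-chaperone that glucocorticoids induce most widely, read 7.84, 8.34 and 8.78 on intact and 7.27, 8.20 and 8.36 on OVX/ADX arrays, with overlapping groups (−0.27 ± 0.21, adjusted p = 0.281). The low value was that of array 2530, and the next lowest OVX/ADX array read 8.02.

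Members called higher included Mt1, a metal-binding metallothionein, which read 5.23 to 5.50 on intact and 6.24 to 6.41 on OVX/ADX arrays (1.00 ± 0.05, adjusted p = 6.9e-09). Per1, a repressor in the circadian clock, read 8.21, 8.31 and 8.36 against 8.55, 8.72 and 8.86. Its groups did not overlap, with a difference of 0.43 ± 0.06 (adjusted p = 2.85e-05). Plin4, a lipid droplet coat protein, was higher by 0.50 ± 0.07, again without overlap. Of members named after their values were seen, Cdkn1a, an inhibitor of the cell cycle, was higher by 0.67 ± 0.10 and Ddit4, an inhibitor of mTOR signalling, by 0.42 ± 0.12. Klf9, a transcription factor, was higher by 0.27 ± 0.10 (adjusted p = 0.0282), a call that was lost on leaving out any 1 of 6 arrays (intact 2543, 2526 or 2531, or OVX/ADX 4123, 4125 or 4126). Tsc22d3, also called GILZ, did not pass (0.11 ± 0.07, adjusted p = 0.182), but passed without 2530 at 0.17. Sgk1, a kinase that corticosteroids induce, did not pass either (0.50 ± 0.24, adjusted p = 0.0835), and it passed without intact 2539 at 0.62 and without 2530 at 0.64. Cables1 was lower by both of its probe sets (−0.34 ± 0.05).

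**Figure D3:**
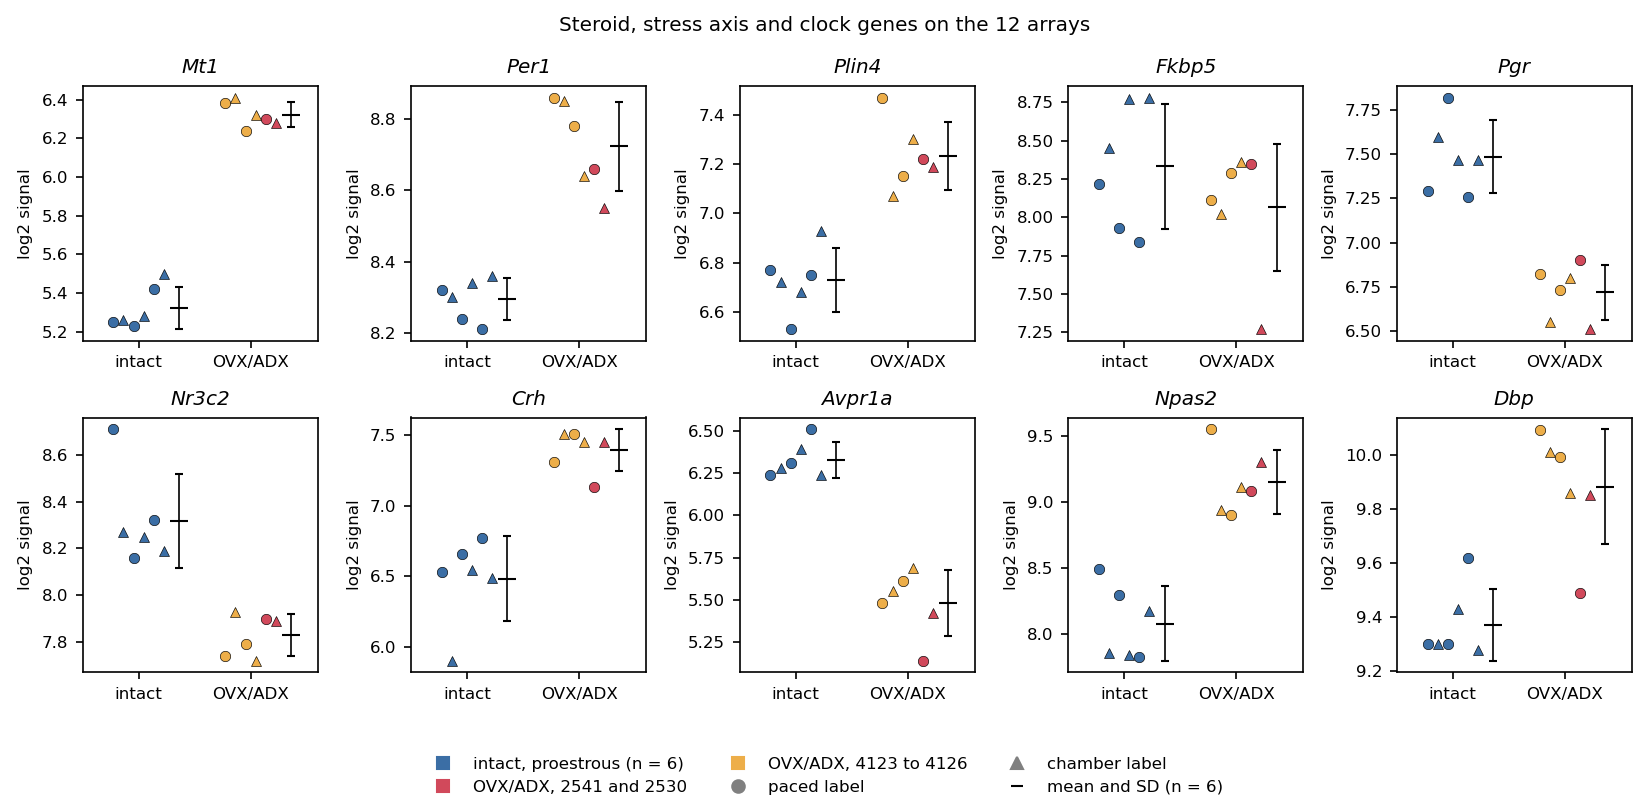
Log2 signal of 10 steroid, stress axis and clock genes on each array, by gland state, with colours, shapes and mean ± SD bars as for the control transcripts. Mt1, Per1, Plin4, Crh and Npas2 were higher and Pgr, Nr3c2 and Avpr1a lower on every OVX/ADX array, while Fkbp5 and Dbp overlapped.

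Of 20 genes that respond to estrogen or progestogen, 2 were called higher (10%) and 6 lower (30%), beside 31.3% and 31% of all genes. Besides Pgr, Myc, a growth-promoting transcription factor, read 6.29, 6.52 and 6.70 on intact and 5.48, 5.62 and 5.96 on OVX/ADX arrays, and was lower on all (−0.89 ± 0.09, adjusted p = 2.49e-06). Stat5b, which relays prolactin and growth hormone signals, was higher on all OVX/ADX arrays by 0.76 ± 0.08 (adjusted p = 2.39e-06). Klk1b3, a kallikrein named after its values were seen, differed by −1.59 ± 0.66 (adjusted p = 0.0491). It read 8.58 on array 2541 and 5.22 to 5.40 on the other OVX/ADX arrays, and its call was lost on leaving out any 1 of 9 arrays (all but intact 2543 and 2538 and OVX/ADX 2541).

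Among genes that make or metabolize steroids, 6 of 15 were called higher (40%) and 2 lower (13.3%), beside 31.3% and 31% of all genes. Cyp7b1, which hydroxylates neurosteroids, was lower at 5.46 to 5.86 against 6.23 to 6.57 (−0.71 ± 0.08, adjusted p = 5.36e-06). Hsd17b10, a mitochondrial dehydrogenase that oxidizes steroids, was lower by 0.35 ± 0.04. Hsd11b2, which inactivates corticosterone, was higher by 0.51 ± 0.07, and Star, which carries cholesterol to the mitochondrial enzyme that starts steroid synthesis, by 0.22 ± 0.05. Star read 5.36 to 5.71 over the 12 arrays, near the 24.3rd percentile of signals on intact and the 27.9th on OVX/ADX arrays.

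Of 15 stress axis genes, 5 were called higher (33.3%) and 4 lower (26.7%), near the 31.3% and 31% of all genes. Crh, the peptide that starts the adrenal axis, read 5.90, 6.54 and 6.77 on intact and 7.13, 7.45 and 7.51 on OVX/ADX arrays. Every OVX/ADX array was higher, by 0.91 ± 0.12 (adjusted p = 3.11e-05, 1.88-fold), with 0.81 for 2541 and 2530 and 0.96 for the others. Crhbp, the protein that binds and buffers it, was lower by 0.57 ± 0.08. Avpr1a, the vasopressin receptor of brain, read 6.24, 6.30 and 6.51 against 5.14, 5.51 and 5.69 and was lower on all OVX/ADX arrays (−0.85 ± 0.08, adjusted p = 1.88e-06).

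The labelled tissue was midbrain, and the study gives the optic chiasm as the anterior border of its dissection. Some peptides made in hypothalamic neurons, such as Oxt and Avp, were among the brighter signals, while others, such as Crh and Gnrh1, were dimmer. Of 20 peptide genes of hypothalamic neurons measured, 6 were called higher (30%) and 2 lower (10%), beside 31.3% and 31% of all genes. Oxt, oxytocin, read 8.53, 11.25 and 11.79 on intact and 11.49, 12.16 and 12.43 on OVX/ADX arrays, which overlap (1.45 ± 0.53, adjusted p = 0.0281, exact permutation p = 0.015). Intact arrays 2543 and 2526 were the low ones, at 8.53 and 9.19. The call for Oxt was lost without intact 2526, OVX/ADX 4124 or OVX/ADX 4125, with values of 1.14 without the first and 1.37 without the last. Avp, vasopressin, which is made in neighbouring neurons and was named after its values were seen, read 9.25 to 11.96 against 11.35 to 12.48 (1.29 ± 0.44, adjusted p = 0.0207). Sst (somatostatin) was higher by 0.51 ± 0.11, and Trh and Hcrt (orexin), also named after their values were seen, by 0.66 ± 0.22 and 0.40 ± 0.13. Sim1, a transcription factor of the paraventricular and supraoptic neurons, was higher on all OVX/ADX arrays at 5.66 to 6.14 against 4.96 to 5.28 (0.79 ± 0.09). Its intact values lay near the 20th percentile of the filter on low signals, so it was kept mainly through the OVX/ADX arrays. Gnrh1, which drives the gonadotropins, was lower at 4.52 to 4.92 against 5.30 to 5.71 (−0.78 ± 0.08). Its OVX/ADX values lay below the 20th percentile of the filter, so it was kept only through the intact arrays. Differences in the tissue taken were not tested, and fewer cells of a type and less RNA per cell cannot be told apart in these bulk samples.

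Of the markers of midbrain dopamine neurons, Th and Aldh1a1 were bright on all 12 arrays. Pitx3 and En2 had OVX/ADX means of 5.01 and 5.20, below and near the 20th percentile of the filter. The markers were lower in OVX/ADX as far as they passed. Of 14 measured, 8 were called lower and 0 higher, beside 31% and 31.3% of all genes, with a median difference of −0.53. Groups that did not overlap were fewer than among genes in general, in 1 of the 14 beside 40.9% of all genes. That one was Pitx3, a transcription factor these neurons need, which read 5.83, 5.93 and 6.07 on intact and 4.94, 5.01 and 5.08 on OVX/ADX arrays (−0.93 ± 0.05, adjusted p = 3.9e-09). Its OVX/ADX values lay below the 20th percentile of the filter on low signals. The probe set was thus kept only through the intact arrays, where it was high, and its separation adds no independent support.

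Th, the enzyme that limits dopamine synthesis, read 9.70, 10.76 and 11.27 on intact and 9.29, 10.36 and 10.68 on OVX/ADX arrays and did not pass (−0.45 ± 0.24, adjusted p = 0.114). It passed on leaving out intact 2543, at −0.60, or OVX/ADX 2541, at −0.57. Aldh1a1, an aldehyde dehydrogenase of ventral tier dopamine neurons, read 10.31, 10.96 and 11.18 against 9.59, 10.02 and 10.51 (−0.84 ± 0.18, adjusted p = 0.0011). Chrna6, a nicotinic receptor subunit, En2, a patterning factor, and Slc18a2, the vesicular monoamine transporter named after its values were seen, were lower by 0.62 ± 0.10, 1.10 ± 0.18 and 0.67 ± 0.15. Slc6a3, the dopamine transporter, was lower by 0.89 ± 0.29 (adjusted p = 0.0159), and Drd2, the D2 receptor, by 0.79 ± 0.29 (adjusted p = 0.0273). Drd2 read 8.66 on array 2541 and 7.19 to 7.41 on the other OVX/ADX arrays, and its call was lost on leaving out intact 2526 or 2536 or any OVX/ADX array but 2541. Nr4a2 did not pass (−0.06 ± 0.23), and its dimmer probe set was called lower by 0.85 (adjusted p = 0.00275). Slc6a3, Drd2 and Nr4a2 were named after their values were seen.

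The serotonin list had 4 of 7 lower (57.1%) and 1 higher (14.3%), beside 31% and 31.3% of all genes. Fev, the transcription factor that marks serotonin neurons, read 6.81, 6.90 and 7.01 on intact and 5.69, 5.77 and 5.92 on OVX/ADX arrays, without overlap (−1.13 ± 0.05, adjusted p = 1.81e-09). Htr1a, their autoreceptor, and Gata2 were lower by 0.83 ± 0.07 and 0.86 ± 0.06. Gata3 was called higher by its brightest probe set (0.22 ± 0.06) and its other probe set differed by −1.40.

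**Figure D4:**
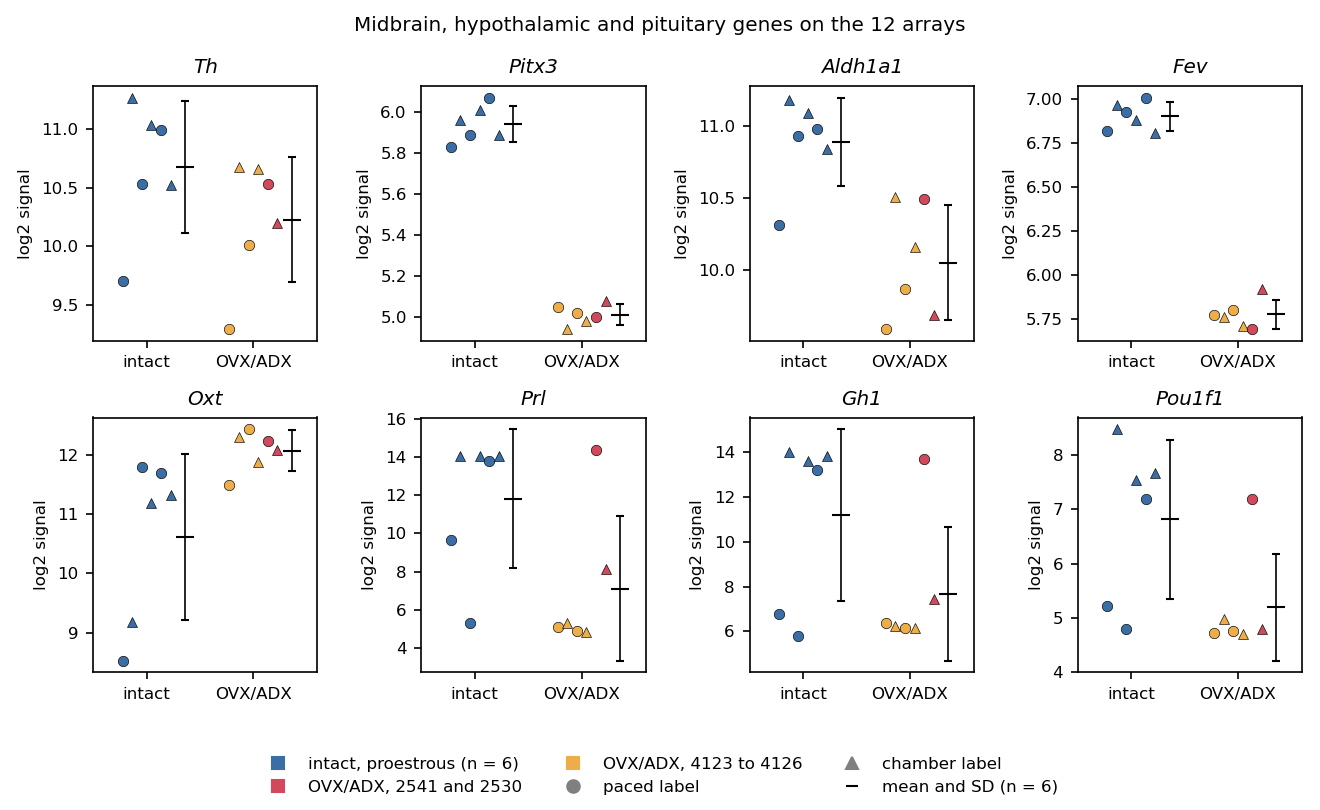
Log2 signal of 8 genes of midbrain, hypothalamus and pituitary on each array, by gland state, with colours, shapes and mean ± SD bars as for the control transcripts. Pitx3 and Fev separated the groups, Th overlapped, and Prl, Gh1 and Pou1f1 were high on 4 intact arrays and on OVX/ADX array 2541.

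Transcripts of the anterior pituitary were present on some arrays of both groups. Of 10 hormone and hormone receptor genes, 5 were called lower (50%) and 0 higher, beside 31% and 31.3% of all genes. Their median was −1.09 (−0.60 for 2541 and 2530, −1.31 for the others). Within chamber arrays the median was −2.55 and within paced arrays it was 0.08. Prl, prolactin, read 13.78 to 14.06 on 4 intact arrays, 9.64 on 2543 and 5.32 on 2538. On OVX/ADX arrays it read 14.38 on 2541, 8.13 on 2530 and 4.83 to 5.33 on 4123 to 4126. The difference of −4.71 ± 1.89 passed narrowly (adjusted p = 0.0431) and the exact permutation test within mating labels gave p = 0.07. Leaving out any 1 of 9 arrays (all but intact 2543 and 2538 and OVX/ADX 2541) ended the call, with values from −4.80 to −4.07.

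Gh1, growth hormone, had the same high and low arrays and did not pass (−3.53 ± 1.73, adjusted p = 0.0891); without 2543, 2538 or 2541 it passed, at −4.34, −4.56 and −5.04. Pou1f1, the factor that switches on both hormones, read 7.19 on 2541 and 4.70 to 4.99 on the other OVX/ADX arrays (−1.63 ± 0.62, adjusted p = 0.0338), and lost its call without any 1 of the same 9 arrays. With the pituitary hormone median of each array as a term, an alternative added after seeing the data, 15560 probe sets passed the gland comparison in place of 17238. Prl and Gh1 are members of the list behind that term, so their own values under it carry no test.

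Of 19 circadian clock genes, 10 were called higher and 1 lower, against 31.3% and 31% of all genes. Its median member differed by 0.19 (0.16 for 2541 and 2530, 0.22 for the others). The median clock signal of each array was 8.48 to 8.66 on intact and 8.80 to 9.06 on OVX/ADX arrays. Single members separated less often than genes in general. Groups did not overlap in 4 higher members and 1 lower member of the 19, beside 40.9% of all genes. Npas2, a partner of Bmal1 that can replace Clock, read 7.82, 8.01 and 8.49 against 8.90, 9.10 and 9.55 and was higher on all OVX/ADX arrays (1.07 ± 0.13, adjusted p = 1.38e-05).

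Per3 was higher by both of its probe sets (0.41 ± 0.07), beside Per1 above. Of members named after their values were seen, Nr1d1 (Rev-erb alpha), a repressor of Bmal1, was higher by 0.50 ± 0.10, and Dbp, an output factor of the clock, by 0.51 ± 0.10. Both overlapped between groups and were smaller for 2541 and 2530 (0.28 and 0.30) than for 4123 to 4126 (0.62 and 0.61), and the difference between the title series passed in no gene. Cry1, a repressor, and Bmal1 were likewise higher by 0.21 ± 0.05 and 0.24 ± 0.06. Bhlhe41 (Dec2), which represses clock targets, was lower on all OVX/ADX arrays at 10.29 to 10.40 against 10.60 to 10.80 (−0.35 ± 0.04, adjusted p = 8.41e-06), and Clock did not pass (−0.01 ± 0.03, adjusted p = 0.703), although dimmer probe sets of it were called higher by 0.14 and 0.76. The hour at which tissue was collected from each rat was not among the sources used here.

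Clock factors bind the E-box CACGTG, which reads the same on both strands. RefSeq promoter windows of 300 bases (250 before and 50 after the start, build GRCr8) were at hand for 17 of the 19 clock genes. The E-box was in 3 of them, Tef (called higher), Bhlhe41 (called lower) and Bhlhe40 (not called), and in 6.42% of all 33469 windows. The windows of the 2 called genes, which were called in opposite directions, are shown 5′ to 3′ on the gene's strand with the E-box in capitals. Tef lies at chr7:115206577-115206876 (plus strand) and Bhlhe41 at chr4:180569306-180569605 (minus strand).
Tef: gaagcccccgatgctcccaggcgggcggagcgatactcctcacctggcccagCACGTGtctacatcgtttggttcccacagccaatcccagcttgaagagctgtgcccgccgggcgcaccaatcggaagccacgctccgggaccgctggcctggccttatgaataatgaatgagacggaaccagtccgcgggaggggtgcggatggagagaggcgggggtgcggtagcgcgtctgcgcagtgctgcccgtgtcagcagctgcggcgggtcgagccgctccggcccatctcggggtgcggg
Bhlhe41: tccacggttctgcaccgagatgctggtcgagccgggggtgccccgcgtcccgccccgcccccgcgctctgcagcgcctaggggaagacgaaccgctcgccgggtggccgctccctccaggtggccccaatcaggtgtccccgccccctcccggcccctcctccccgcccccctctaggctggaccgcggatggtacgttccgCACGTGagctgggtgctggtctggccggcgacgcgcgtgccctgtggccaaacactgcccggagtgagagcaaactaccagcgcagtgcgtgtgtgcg
Counted from the transcript start, the match begins at −198 in Tef and at −48 in Bhlhe41. A match is a letter pattern and not a measured site, and 8 of the 9 higher genes with a window held none in it.

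**Figure D5:**
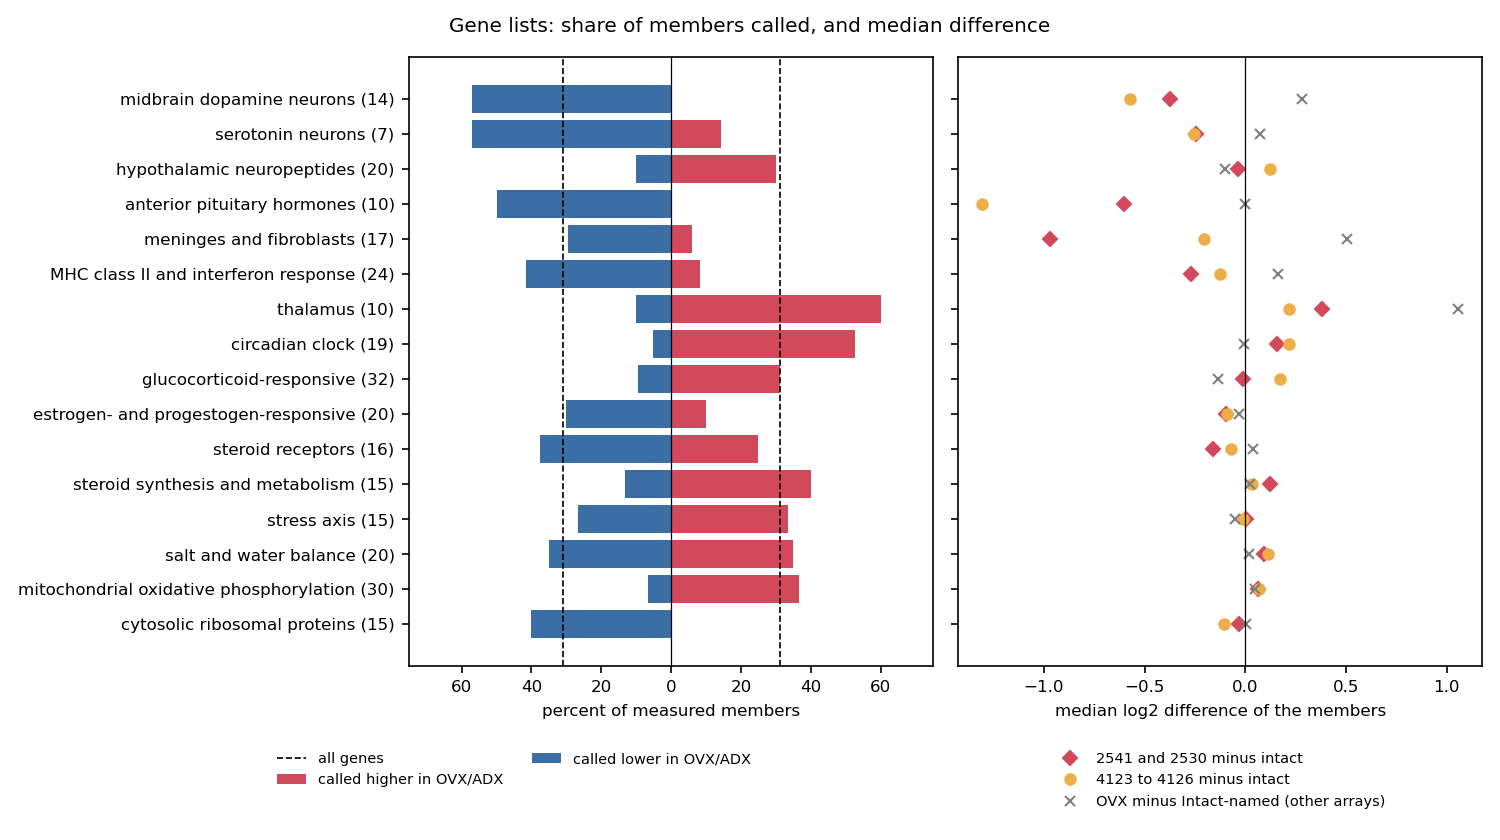
Left, share of each list's measured members (number in brackets) called higher (red, right) or lower (blue, left) in OVX/ADX, with dashed lines at the share of all genes (31.3% and 31%). Right, median log2 difference of the members for 2541 and 2530, for 4123 to 4126 (both against the same intact arrays) and for OVX against Intact-named arrays; the dopamine list is below 0 in both of the former and above 0 in the latter.

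Counts of other groups of genes stand beside the same 31.3% and 31% of all genes. The thalamus list had 6 of 10 higher and 1 lower, with Prkcd, a kinase abundant in thalamic neurons, higher by 0.90 ± 0.19 and Tcf7l2, a thalamic transcription factor, by 0.44 ± 0.14. Of 30 oxidative phosphorylation genes 11 were higher and 2 lower, and of 15 ribosomal protein genes 0 were higher and 6 lower, with medians of 0.07 and −0.08. Of 24 MHC class II and interferon genes 2 were higher and 10 lower. In that list RT1-DMa, which loads class II molecules, was lower at 7.35 to 7.74 against 7.99 to 8.23 (−0.60 ± 0.07), Oas1a, an antiviral enzyme, by 0.61 ± 0.09 and Tap1, a peptide transporter, by 0.35 ± 0.07, while Cd74, the class II invariant chain, ranged from 6.90 to 9.38 over the arrays and did not pass (−0.40 ± 0.41). Of 17 meninges and fibroblast markers, 5 were called lower and 1 higher, and none separated the groups, beside 40.9% of all genes. Their median of −0.39 (−0.97 for 2541 and 2530, −0.20 for the others) ran from −0.61 without intact 2538 to −0.10 without 2530, and their part in the other results was not tested.

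Of 13 GABA-A receptor subunits, 5 were called higher (38.5%) and 4 lower (30.8%), beside 31.3% and 31% of all genes. Gabrd, the delta subunit of neurosteroid-sensitive receptors, read 7.85, 8.56 and 8.69 on intact and 8.91, 9.14 and 9.96 on OVX/ADX arrays and was higher by all 3 probe sets (0.81 ± 0.17, adjusted p = 0.000991). Gabra6, a subunit of cerebellar granule cells, was lower by 0.56 ± 0.06 at signals of 4.67 to 5.57. Among growth factor genes, Fgf2 was higher at 6.10 to 6.36 against 4.90 to 5.31 (1.16 ± 0.07), Ntrk3, the neurotrophin-3 receptor, by 1.30 ± 0.12, and Egfr was lower by both probe sets (−1.37 ± 0.09). Of 21 immediate early genes 4 were higher and 6 lower. Fos was higher by 0.68 ± 0.14 in its brighter probe set and lower by 0.17 in the other, and Homer1 was lower by 0.61 ± 0.12 in its brightest of 5 and higher by 1.66 in another. Egr4 was higher by both probe sets (0.44 ± 0.03) and Dusp6 was lower (−0.42 ± 0.09). Of reference transcripts, Hprt1 did not pass (−0.04 ± 0.03) and Pgk1 was higher by 0.22 ± 0.04.

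Some of the differences beyond 2-fold with separated groups lay in genes of unlike function. Kif1a, a motor of synaptic vesicle precursors, read 7.67, 7.81 and 7.97 on intact and 9.48, 10.35 and 10.56 on OVX/ADX arrays (2.39 ± 0.16, 5.25-fold), and of its other probe sets one was higher by 2.46 and one lower by 0.31. Taf15, an RNA-binding protein, read 6.61 to 6.86 against 8.71 to 9.01 (2.10 ± 0.06), and Bod1l1 5.07 to 5.50 against 6.74 to 7.69 (2.02 ± 0.14). Atxn1, the ataxin of spinocerebellar ataxia, was higher by 1.68 ± 0.23 and Kif5c, a kinesin heavy chain, by 1.39 ± 0.13, with its other probe sets at −0.11 and 0.35.

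Downward, Chrnb4, a nicotinic subunit, read 7.74, 7.88 and 8.06 against 5.03, 5.21 and 5.32 (−2.70 ± 0.07, adjusted p = 2.06e-11, 6.50-fold). Tnnt3, a troponin of skeletal muscle, read 7.32 to 7.45 against 4.74 to 4.98 (−2.52 ± 0.05). Phlda1 was lower by 1.75 ± 0.04. The OVX/ADX values of Tnnt3 and the OVX/ADX mean of Phlda1 (4.91) lay below the 20th percentile of the filter. Tnnt3 and Phlda1 were thus kept through the intact arrays. The OVX/ADX mean of Chrnb4 (5.19) lay near that percentile. Glra1, a glycine receptor subunit, was lower by 2.02 ± 0.13 in its brightest probe set and higher by 0.50 in the other. Herc1, Pou1f1 and Fshb were the only genes with 2 or more probe sets all called and all beyond 2-fold in one direction, Herc1 higher by 1.26 and 1.47, and it was named for that after its values were seen. The brightest probe set of Fshb passed narrowly in limma (−1.03 ± 0.42, adjusted p = 0.0463), with overlapping groups. The call for Pou1f1 depended on single arrays, as given above.

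Whether the gland difference depended on mating was tested as an interaction. It passed in 0 of 26015 probe sets (0%), with 2073 at an unadjusted p under 0.05, 0 calls in a plain linear model and a smallest adjusted p of 0.271. Within paced arrays 12626 probe sets passed the gland comparison, and within chamber arrays 14973. The genes with the smallest interaction p were Deptor, Fshb, Prrt2, Rrs1-ps9 and Sytl4, whose gland differences in paced minus chamber arrays were 0.60, 2.61, −0.58, 1.05 and 0.91. The mating term itself passed in 0 probe sets in limma and in the plain model, with 705 at an unadjusted p under 0.05.

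The OVX/ADX difference was set against that of ovariectomy alone in a fit to all 24 arrays. This used 6 OVX and 6 Intact-named arrays of another inferred normalization run. By the study's methods, OVX rats received the same estradiol benzoate priming as OVX/ADX rats. Ovariectomy alone therefore means without adrenalectomy, and not without estradiol. OVX differed from Intact-named in 7.41% of 27032 probe sets. The 2 differences differed from each other in 51.1%. Kif1a, Bod1l1, Taf15, Atxn1 and Kif5c were the genes furthest above their ovariectomy value, by 3.15, 2.67, 2.30, 2.13 and 1.95, and Chrnb4, Tnnt3, Ogn, En2 and Gbx2 were furthest below it, by differences of −2.97, −2.65, −2.25, −2.22 and −2.19. OVX/ADX minus intact was only −1.37, −1.10 and −1.01 for Ogn, En2 and Gbx2. Part of their values thus lay in OVX against Intact-named. The dimmer probe set of Gbx2 was called higher by 0.92 in OVX/ADX against intact.

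Pgr was near 0 after ovariectomy alone (−0.01, adjusted p = 0.969) and the difference of differences passed (−0.77, adjusted p = 0.006). Crh differed by −0.58 after ovariectomy alone (adjusted p = 0.0624), against 0.91 with OVX/ADX, and the difference of differences was 1.51 (adjusted p = 6.8e-05). For Mt1 and Per1 it was 1.23 and 0.57, and both passed. For Dbp, Nr1d1, Trh and Crhbp it was 0.17, 0.26, 0.21 and −0.10, and none passed; Dbp was higher after ovariectomy alone as well (0.36, adjusted p = 0.03). The dopamine list had a median of 0.28 after ovariectomy alone. Medians of the thalamus, meninges and striatum lists there were 1.06, 0.50 and −0.37. Differences in the tissue taken were not tested in that comparison either. Here too the gland difference of OVX/ADX arrays is that between 2 inferred runs, whereas OVX and Intact-named arrays share 1. The titles of OVX and of Intact-named arrays carry different leading number codes, which follow gland state there as well. What these codes stand for is not given.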

How the data were processed

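RNA was measured on Affymetrix rat genome expression arrays. For the deposited log2 signals the submitters' processing notes name RMA and Expression Console 1.4, while the study's methods describe GCRMA within GeneSpring. No label names a normalization run. Separate runs by the authors were inferred from the lowest signals. Signals of the 12 arrays, without the 57 control probe sets, were quantile-normalized together, and those at or above the 20th percentile in at least 3 arrays were kept. A dim probe set could pass through the arrays of 1 gland state only, and among such probe sets the filter itself favours separated groups. Normalization forces equal distributions, so a shift of all transcripts would not be seen. Of 31099 probe sets, 20832 carried 1 gene symbol, 436 several and 9831 none; 20764 symbols were updated through RefSeq. Where a gene had several probe sets, the brightest on average stood for it. The number of arrays limits the precision.

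Comparisons used limma 3.58.1 in R 4.3.3 (lmFit and eBayes, Benjamini-Hochberg over all probe sets kept, threshold 0.05), with the mating label as a term. Title series, interaction and ovariectomy contrasts used the fits described beside them. Single genes were also tested by two-sided exact permutation of gland labels within mating labels (400 labelings). Calling was tested on simulated data. Alternatives were other scalings and filters, the within-array percentile, variance models, array weights, no mating term, each mating label alone and leaving out each array; terms for pituitary and dopamine markers were added after seeing the data.

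Named genes were the 12 largest differences each way that kept their sign in both title series and in percentiles, up to 4 members with the smallest p and the leading member of each of 38 lists, and the 5 leading genes each way in the other contrasts. From these the text gives a selection. The members and lists were chosen with earlier results of these data known.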

Additional observations from a re-analysis of the deposited data

Results flagged for a closer look

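Of 244 groups of 6 arrays, 23 had a highest or lowest array whose gap to the next exceeded Dixon's 95% critical value; chance gives about 1 in 20. Array 2541 was the high OVX/ADX array for Prl (14.38, next 8.13), Gh1 (13.68, next 7.44), Pou1f1 (7.19, next 4.99), Klk1b3 (8.58, next 5.40), Drd2 (8.66, next 7.41), Nr4a2 (9.22, next 8.32), Egfr (6.19, next 5.86) and Myc (5.96, next 5.63). It was also high in the median signal of anterior pituitary hormones (9.34, next 6.40), other anterior pituitary genes (8.24, next 6.70) and estrogen- and progestogen-responsive genes (8.78, next 8.50). OVX/ADX array 2530 was low for Fkbp5 (7.27, next 8.02) and Tsc22d3 (10.91, next 11.14). OVX/ADX array 4126 was low for Rxra (6.76, next 6.93), and 4124 was high for Per3 (8.26, next 8.07).

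Among intact arrays, 2543 was high for Nr3c2 (8.71, next 8.32), Homer1 (9.70, next 8.98) and the median of cortex and hippocampus genes (7.82, next 7.21), and low for RT1-DMa (7.99, next 8.16). Array 2526 was low for Crh (5.90, next 6.49), Prkcd (9.06, next 9.77) and the thalamus median (9.10, next 9.63). Array 2539 was high in the median of choroid plexus and ependyma genes (8.16, next 7.37).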

How the results depend on the processing

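With the filter at the 50th percentile, which tests fewer probe sets, 10166 passed the gland comparison, 7604 that of 2541 and 2530, 9452 that of 4123 to 4126 and 8336 the difference from ovariectomy alone. Leaving out each array in turn gave 16335 to 17371, 10709 to 13739, 14719 to 16791 and 13195 to 14192 for these. It gave 0 to 12 for the title series (12 without 2530, 6 without 4123, 1 without intact 2539), 0 to 23 for gland by mating (23 without 2541, 1 without intact 2538) and 0 to 1 for mating (1 without 2541); the cause was not tested. The median of glucocorticoid-responsive genes was 0.31 within paced and −0.07 within chamber arrays, and 0.04 to 0.18 on leaving out arrays. That of anterior pituitary hormones was −2.55 within chamber and 0.08 within paced arrays, and −1.58 to −0.87 on leaving out arrays. The ranges for dopamine and clock genes were −0.64 to −0.46 and 0.17 to 0.21.

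On the deposited signals 2276 of 22036 called probe sets were higher, with all probe sets shifted by −0.40. The gland comparison gave 17271 calls with array medians subtracted, 16676 on within-array percentiles and 15560 with the pituitary term, chosen after seeing the data. Under that term Prl, Klk1b3, Nr4a2, Gh1 and Pou1f1 turned to 0.12, 0.0918, 0.53, 1.09 and 0.0206; Prl and Gh1 belong to the list that made the term, so these values are no test of them. Of 84 genes examined this way 74 were called, and 45 of these kept direction and call under every setting listed in the methods other than those added after seeing the data. No paired analysis was possible because the labels give the arrays compared no shared replicate numbers. Signal over background limits the dim genes, and 475 of the 961 probe sets beyond 2-fold lay in the dimmest of 4 equal parts.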

Other observations

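Lists not described above are given by their counts, beside 31.3% of all genes called higher and 31% lower. Of 16 ionotropic glutamate receptor genes 6 were called higher and 2 lower in OVX/ADX, and of 9 GABA synthesis and transport genes 0 and 3. Cholinergic and motor neuron genes had 0 higher and 3 lower of 8, cerebellum and hindbrain genes 3 and 5 of 11, cortex and hippocampus genes 2 and 3 of 10, striatum genes 3 and 2 of 12, and hypothalamic transcription factors 2 and 2 of 7. Salt and water balance genes had 7 higher and 7 lower of 20.

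Of cell type lists, endothelium had 2 higher and 6 lower of 12, microglia 4 and 4 of 14, astrocytes 1 and 3 of 13, myelin and oligodendrocytes 3 and 4 of 16, Schwann cells 1 and 2 of 6, blood cells 2 and 3 of 7, choroid plexus and ependyma 1 and 3 of 12, and neurons in general 3 and 4 of 17. Other anterior pituitary genes had 1 higher and 4 lower of 14. Heat shock and unfolded protein response genes had 3 higher and 2 lower of 17, cell cycle genes 3 and 4 of 15, growth factors and receptors 4 and 7 of 25, and reference transcripts 2 and 0 of 6.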
